A study of Homo sapiens with 62 samples.

Results

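The 10 genes described here encode the subunits of the transcription factor NF-kB and the inhibitors that bind them. They were chosen by symbol, and all 10 were found as a single row each among the 49115 rows kept from the deposited FPKM tables (fragment counts scaled for transcript length and sequencing depth). The canonical subunit genes are NFKB1, REL and RELA, the noncanonical ones NFKB2 and RELB, the cytoplasmic inhibitor genes NFKBIA, NFKBIB and NFKBIE, and the nuclear IkB genes NFKBIZ and BCL3.

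NF-kB subunits bind DNA as dimers and are held in the cytoplasm by IkB proteins. In the canonical pathway, a kinase complex marks the IkB for destruction and releases dimers of the NFKB1, RELA and REL products, which switch on many genes, NFKBIA among them, so that the inhibitor is made again. In the noncanonical pathway, receptors such as CD40 stabilise the kinase NIK, which drives the processing of the NFKB2 precursor and releases its dimer with RELB. Both pathways are switched on in B cells immortalised by Epstein-Barr virus, in which the viral protein LMP1 acts much as a receptor that is always engaged.

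All values came from GM12878, a human B-lymphoblastoid cell line immortalised by that virus, and no treatment was given in the labels. Cells were amplified by SMART-seq, which copies polyadenylated RNA into full-length cDNA. The study split pools of 10 cells into 10 parts, each handled like a single cell, to measure technical variation. Of its 62 samples, 20 such splits were analysed here, 10 whose titles number them from 1 to 10 (the numbered splits) and 10 whose titles hold only a library number between 232 and 253 (the unnumbered splits). The titles of 9 of the 10 unnumbered splits mark them as replaced by a later deposition. Whether a set comes from a single pool, and the sets from separate cultures, is not in the labels, so p-values measure the spread between these splits, which may be technical. In such splits, fewer cells holding a transcript and less of it per cell cannot be told apart.

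Depth, estimated from the confidence bounds of mitochondrial genes, in units of 1e6 fragments, was 11.8 to 20.6 in the numbered splits and 0.128 to 38.7 in the unnumbered ones, of which 8 were deeper than every numbered split and split 247 was the shallowest. A gene was called seen in a split at an FPKM of 1 or more, and the numbered splits held 3771 to 7671 such genes against 2942 to 4792. Numbered splits 5 to 8 carry laboratory numbers apart from those of all the others, for a reason the labels do not give, and results are also given without them. Of 8 B cell marker genes, 5 to 8 were seen in each numbered and 3 to 6 in each unnumbered split, and their summed level was 7751 to 12938 and 3781 to 6367 FPKM. Of 6 T or NK cell markers only CD3E was ever seen, in 3 numbered splits and at up to 29.9 FPKM, while CD3D and GNLY were listed at 0 in all 20 splits. Of 4 myeloid markers, CD14 and S100A8 were listed at 0 throughout, S100A9 was seen in 1 split, and CSF1R stood at 0.902 to 53.8 FPKM; fibroblast and epithelial markers reached 2.61 FPKM at most. An exact 0 need not mean absence of the transcript, since 5 of 8 genes that every cell uses, among them POLR2A and TBP, were also listed at 0 in at least 1 split.

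Promoter sequences are shown because some NF-kB and IkB genes are themselves known NF-kB targets. RefSeq promoters (GRCh38.p14) were found for 8 of the 10 genes, and the 250 bases before the start site were searched on both strands for the 10-base kappaB consensus. It was present in 4 of the 8, NFKB1, REL, NFKBIA and NFKBIZ, against 9.96% of 35116 promoters, and no match was found in this window of RELA, NFKB2, NFKBIB or BCL3. The promoters of NFKBIA, NFKBIZ and NFKB1 are printed 5′ to 3′ on the strand of the gene, with the match in capitals. NFKBIA was taken as the gene seen in most splits and NFKB1 as the most abundant subunit gene. NFKBIZ was taken as a gene called between the sets in the main analysis, a call lost under some settings.
NFKBIA (chr14:35404750-35404999, minus strand): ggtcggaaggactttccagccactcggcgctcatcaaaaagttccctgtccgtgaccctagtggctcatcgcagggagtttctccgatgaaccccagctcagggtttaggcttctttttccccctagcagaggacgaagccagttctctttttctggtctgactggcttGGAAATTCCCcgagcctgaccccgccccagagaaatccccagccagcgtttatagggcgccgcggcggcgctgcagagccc
NFKBIZ (chr3:101827740-101827989, plus strand): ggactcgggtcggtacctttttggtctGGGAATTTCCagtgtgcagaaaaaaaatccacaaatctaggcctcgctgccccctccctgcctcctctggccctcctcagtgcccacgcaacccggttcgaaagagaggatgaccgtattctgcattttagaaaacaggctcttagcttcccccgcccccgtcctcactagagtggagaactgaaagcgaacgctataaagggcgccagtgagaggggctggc
NFKB1 (chr4:102501109-102501358, plus strand): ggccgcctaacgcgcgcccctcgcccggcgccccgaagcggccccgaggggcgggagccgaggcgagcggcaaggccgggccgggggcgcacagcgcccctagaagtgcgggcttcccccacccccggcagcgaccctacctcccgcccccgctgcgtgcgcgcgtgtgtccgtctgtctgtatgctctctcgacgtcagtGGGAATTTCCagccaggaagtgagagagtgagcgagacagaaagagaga
NFKBIZ and NFKB1 hold the same 10 bases, GGGAATTTCC, with the first base 223 and 49 bases before the start. In NFKBIA the match lies on the opposite strand, from 81 to 72 bases before the start, and read on that strand it is GGGAATTTCC as well. In REL the matches on the 2 strands overlap and cover 11 bases, and the one on the opposite strand also reads GGGAATTTCC there. A match describes these letters only, and binding was not measured.

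NFKBIA stood apart from the other genes by its level and by how often it was seen. The mean over all 20 splits was 64.6 FPKM for NFKBIA, then 17.6 for NFKBIE, 17.4 for NFKB1, 11.6 for RELA, 10.9 for NFKBIZ, 5.93 for NFKB2, 2.82 for REL, 0.813 for RELB, 0.798 for NFKBIB and 0.0746 for BCL3. Below NFKBIA this order is loose. NFKBIE exceeded NFKB1 in 5 of 10 numbered splits and in none of the unnumbered ones, where NFKB1 was higher in 9, and RELA fell below NFKBIZ in 7 of 10 numbered splits but was above it in 3 unnumbered splits and equal to it, at 0, in the other 7. NFKBIA exceeded NFKBIE in 7 of 10 numbered and in all 10 unnumbered splits, and it was the highest of the 10 genes in 12 of 20 splits.

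**Figure D1:**
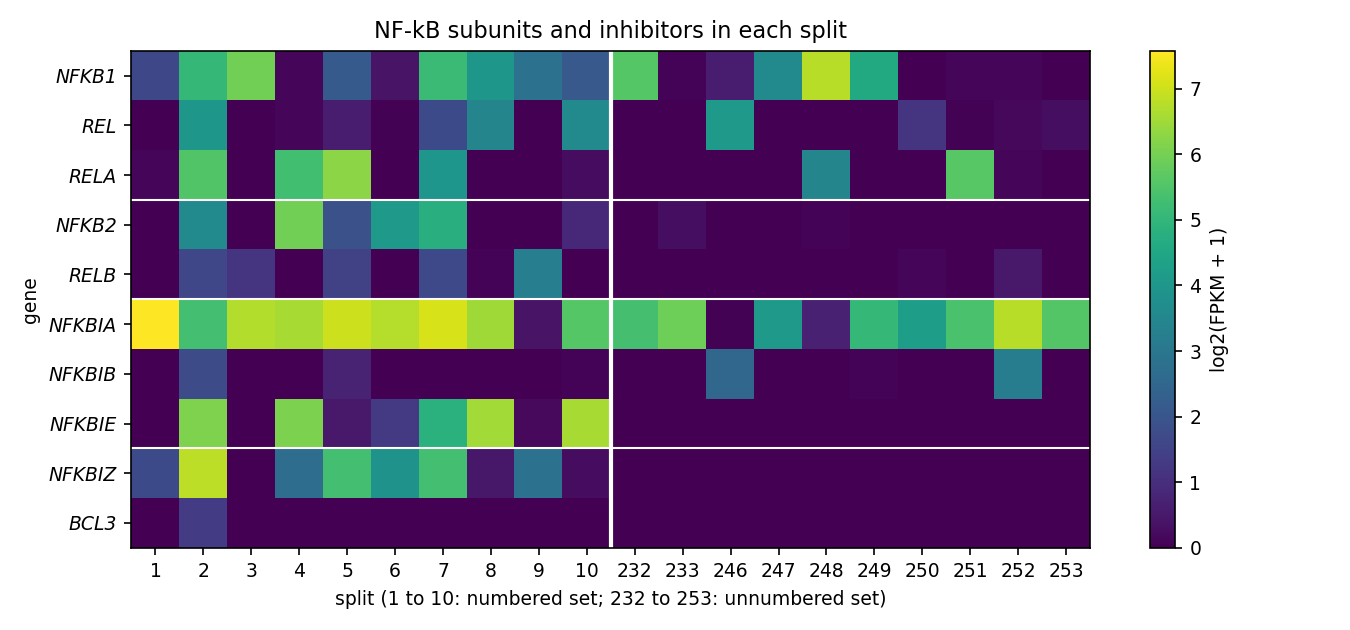
Level of each of the 10 genes (rows) in each split (columns) as log2(FPKM + 1), with the numbered set left and the unnumbered set right of the white line. NFKBIA is bright in nearly every column, numbered split 2 is the only column with all 10 genes at an FPKM of 1 or more, and NFKBIE, NFKBIZ and BCL3 are at 0 in the whole unnumbered set.

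The canonical subunit gene NFKB1 encodes a precursor and, after processing, the subunit p50. It was seen in 8 numbered and 4 unnumbered splits. Levels ran from 0.0789 FPKM in split 4 through a median of 4.85 to 62.1 FPKM in split 3, and in the unnumbered set from 0 in split 250 through a median of 0.30 to 107 FPKM in split 248. In unnumbered split 247, the shallowest, NFKB1 stood at 11.2 FPKM with the authors' confidence bounds at 0 and 22.9 FPKM. The sets overlapped throughout, and the difference in log2(FPKM + 1), numbered minus unnumbered, was 0.80 (SE 1.06, limma adjusted p = 0.696).

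RELA encodes the subunit p65, which carries the activation domain of the classical dimer. It was seen in 4 numbered and 2 unnumbered splits and was nearly all or nothing. In the numbered set it stood at 74.99 FPKM in split 5, where the authors' confidence bounds were 56.1 and 93.8 FPKM, at 44.7 in split 2, 37.7 in split 4 and 14.9 in split 7, and at 0.202 or less in the other 6. In the unnumbered set it reached 48.3 FPKM in split 251 and 9.99 in split 248 and was listed at 0 in 7. The difference was 1.22 (SE 1.03, adjusted p = 0.589).

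REL, the c-Rel subunit gene, which is abundant in lymphoid cells, was seen in 4 numbered and 2 unnumbered splits. It went from 0 through a median of 0.283 to 15.1 FPKM (split 2) in the numbered set. Among unnumbered splits the median was 0.0168 and the highest value 15.7 FPKM (split 246). The difference was 0.78 (SE 0.69, adjusted p = 0.605). Transcripts of the classical pair NFKB1 and RELA were seen together in 4 of 20 splits, NFKB1 alone of the pair in 8, RELA alone in 2 and neither in 6.

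The noncanonical subunit genes NFKB2 and RELB were each seen in 5 numbered and 0 unnumbered splits, and 1.25% of all tested genes were seen in at least 5 and 0. NFKB2, which encodes the precursor that this pathway processes, stood at 61.6 FPKM in split 4, 26.5 in split 7, 15.7 in split 6, 11.04 in split 2 and 2.70 in split 5, and it was listed at 0 in 4 other numbered splits. In the unnumbered set it was listed at 0 in 8 splits and reached 0.212 FPKM. The difference of 2.08 (SE 0.74) did not pass the test (adjusted p = 0.118), and numbered splits at 0 overlap the unnumbered range. Its direction too was fixed by the filter, which NFKB2 passed only through the numbered set. Its partner gene RELB was seen in 5 numbered splits, at 1.23 to 8.43 FPKM, and reached 0.435 FPKM in the unnumbered set. RELB averaged below 1 FPKM and was not tested.

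In the numbered set, the 4 splits with RELA were also among the 5 with NFKB2, and all 4 also held NFKBIZ. NFKB2 and RELB were seen together in 3 numbered splits, NFKB2 alone in 2 and RELB alone in 2. These are counts of a few splits with no test.

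Set against each other per split, the canonical genes were mostly ahead. Their summed FPKM (NFKB1, REL and RELA) exceeded that of NFKB2 and RELB in 7 numbered and 8 unnumbered splits. It ran from 0.354 through a median of 31.5 to 91.8 FPKM in the numbered set and from 0.0479 through 13.7 to 117 FPKM in the unnumbered one. The noncanonical sum ran from 0 through 6.44 to 61.6 FPKM and from 0 through 0.00708 to 0.435 FPKM. The ranges of the canonical sum overlapped, while 8 of 10 numbered splits had a noncanonical sum above the highest of the unnumbered set. No share over all genes stands beside this count, and NFKB2 passed the filter only through the numbered set, which favours it. The pattern was not particular to this arm. NFKBIZ was above all its unnumbered values in every numbered split, and NFKBIE in all but splits 1 and 3.

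As a share of all subunit FPKM, the noncanonical genes made up from 0 to 97.8% in the numbered splits, with a median of 8.96%. They held most of it in 3 splits: 97.8% in split 6, where the canonical genes summed to 0.354 FPKM, 61.9% in split 4 and 57.2% in split 9, where RELB carried it. In the unnumbered splits the median was 0.0331%. There, 7 splits had a subunit sum of 1 FPKM or more, a limit chosen after the values were seen, and among these the share was 7.78% at most and under 1% in 6. The other 3 unnumbered splits, 233, 252 and 253, had subunit sums of 0.26, 0.730 and 0.21 FPKM, so their shares of 81.6, 59.7 and 0.0269% rest on almost nothing. No subunit gene of either arm was seen in those 3 splits. Both arms were seen together in 6 numbered and no unnumbered splits. Without splits 5 to 8, the noncanonical share in the numbered set had the same median of 8.96% over 6 splits.

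**Figure D2:**
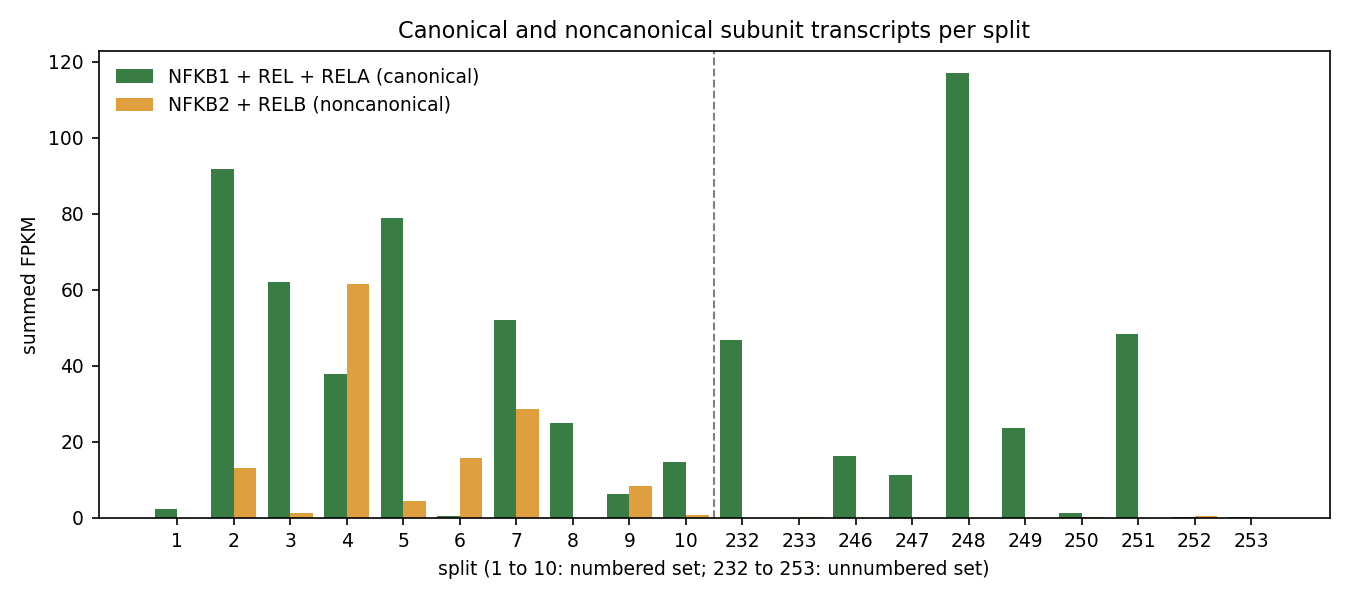
Summed FPKM of the canonical (green) and noncanonical (orange) subunit genes in each split; the dashed line parts the numbered from the unnumbered set. Orange exceeds green visibly in splits 4, 6 and 9, and no orange bar of the unnumbered set passes 0.435 FPKM.

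Of the cytoplasmic inhibitors, NFKBIA encodes IkB-alpha, the inhibitor that is destroyed and remade during canonical signalling. It was seen in 9 numbered and 8 unnumbered splits and was listed at 0 in none. Its level was 93.3 ± 54.3 FPKM (SD, n = 10) in the numbered set, from 0.318 in split 9 and 38.4 in split 2 up to 190.2 in split 1. In the unnumbered set it was 35.9 ± 31.7 FPKM (SD, n = 10), from 0.0292 in split 246 to 107 in split 252. Its value in the shallow split 247, 16.2 FPKM, had confidence bounds of 0 and 59.6 FPKM. The ranges overlapped and the difference of 1.64 (SE 0.95) did not pass (adjusted p = 0.414). Without splits 9, 247 and 253, of which 9 and 253 had the fewest genes seen in their sets and 247 the lowest depth, it was 2.39 (adjusted p = 0.128).

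NFKBIA had the lowest coefficient of variation of these genes, a measure that falls with abundance. Its coefficient of variation was 0.582 over the numbered splits and 0.882 over the unnumbered ones, where 1606 and 2448 tested genes with a mean from 0.5 to 2 times its own had medians of 0.934 and 1.63. A lower value was held by 13.7 and 7.72% of those genes, and in the numbered set REL stood about as low among genes of its own mean, at 13.2%. The other genes with a mean of 1 FPKM or more varied from 1.16 (NFKBIE) to 1.66 (NFKB2) in the numbered set, each below the median of genes of like mean. In the unnumbered set they ran from 1.83 (NFKB1) to 2.84 (REL), and REL and RELA, at 2.84 and 2.61, lay above the medians of 2.69 and 2.49 for genes of like mean.

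NFKBIE, which encodes IkB-epsilon, was higher in the numbered splits, a direction that the filter on low values fixed, since only they carried it past a mean of 1 FPKM. It was listed at 0 in all 10 unnumbered splits, whereas in the numbered set it was seen in 6, at 96.0 FPKM in split 10, 91.1 in split 8, 67.6 in split 2, 67.1 in split 4, 27.5 in split 7 and 1.43 in split 6. Numbered splits 1 and 3 were at 0 as well, so the sets overlap at that value. The difference was 3.21 (SE 0.95, adjusted p = 0.0461, and 0.0129 by an exact rank-sum test adjusted over the same genes). The call is near the threshold. Without splits 5 to 8 the difference was 3.16 and did not pass (adjusted p = 0.122), though 3 of the 6 splits left, 2, 4 and 10, held the gene. It was also lost with any single unnumbered split left out and without numbered splits 2, 4, 7, 8 or 10, at adjusted p-values of up to 0.0883, and with a pseudocount of 10 (0.0951), without the filter (0.212) and without splits 9, 247 and 253 (0.0612).

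NFKBIB, the gene of IkB-beta, was seen in 1 numbered and 2 unnumbered splits, at 2.37 FPKM in split 2, 4.71 in split 246 and 8.14 in split 252. It is the only one of the 10 genes seen more often in the unnumbered set. Its mean was below 1 FPKM and it was not tested. Its locus overlaps that of SIRT2 at the edge, and the strand of reads was not given in the sources used here; SIRT2 was seen in 5 splits.

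NFKBIZ encodes IkB-zeta, a nuclear protein that joins NFKB1 product dimers on DNA and helps to activate a subset of target genes. It was higher in every numbered split than in any unnumbered one, all 10 of which listed it at 0. In the numbered set it ran from 0.00417 FPKM in split 3 through a median of 5.89 to 112 FPKM in split 2, and 7 splits were at 1 FPKM or more. The authors' lower confidence bound was 0 in split 3 and in split 10 (0.18 FPKM). The full separation of the sets thus rests in part on values whose bounds include 0. As for NFKBIE, the filter fixed the direction. The difference was 2.93 (SE 0.79, adjusted p = 0.0258, and 5.42e-04 by the exact rank-sum test). Of all 10506 tested genes, 1.65% had every numbered split above every unnumbered one and 0.352% the reverse, and 4.95% were listed at 0 in all unnumbered splits. Without splits 5 to 8 the difference was 2.39 and did not pass by limma (adjusted p = 0.105), while the median of the remaining numbered splits was 3.93 FPKM against 25.95 in splits 5 to 8. The call was also lost with a pseudocount of 10 (0.13), without the filter (0.0833), without splits 9, 247 and 253 (0.0703) and with splits 5 to 8 as a covariate (0.187). It held with each single split left out (adjusted p of 0.0116 to 0.0444).

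BCL3, the other nuclear IkB gene, whose product binds dimers of p50 or p52, was listed at 0 in 19 of 20 splits and stood at 1.49 FPKM in numbered split 2, where all other genes of the family were also seen. It was not tested. In the 19 splits listed at 0, BCL3 was not detected rather than shown to be absent.

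**Figure D3:**
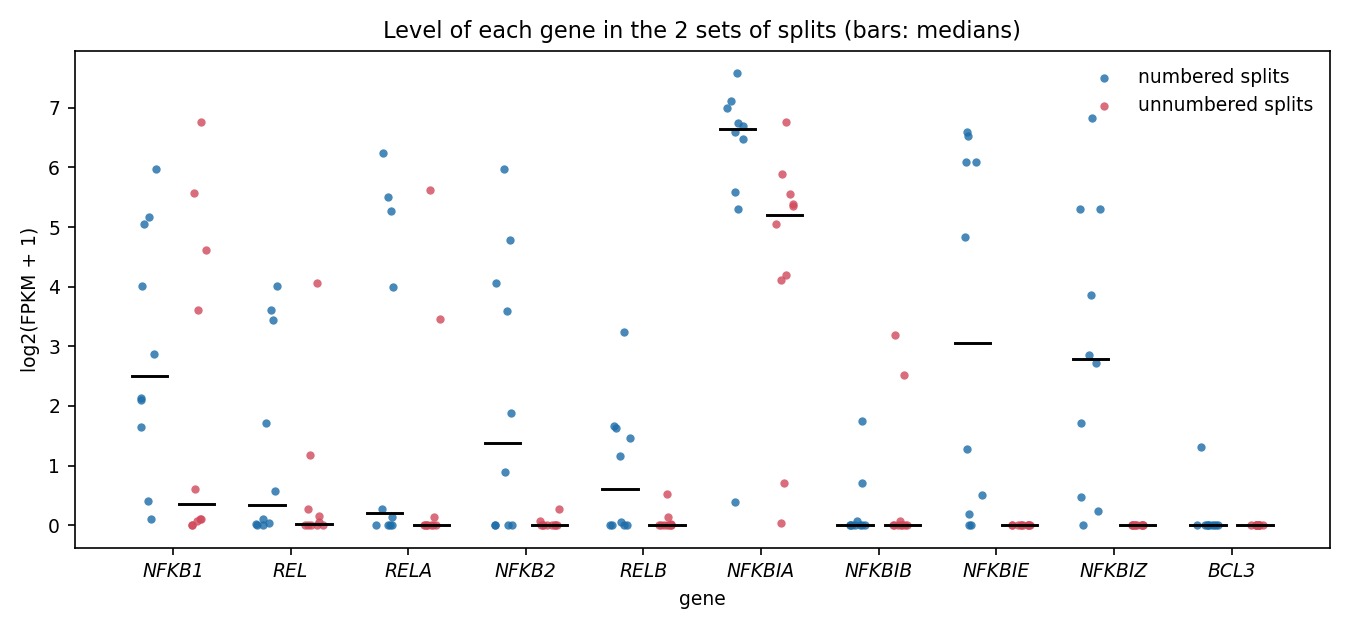
Each point is a split, the vertical axis is log2(FPKM + 1), blue stands for the numbered and red for the unnumbered set, and black bars are medians of 10 splits. The red points of NFKBIE, NFKBIZ and BCL3 all lie at 0, while those of NFKBIA overlap the blue ones.

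Over the whole table, 413 of 10506 genes (3.93%) were higher in the numbered splits and 145 (1.38%) in the unnumbered ones at an adjusted p of 0.05, which moved to 316 and 200 with size factors, 341 and 223 with TPM and 235 and 234 after a correction for transcript length. Either direction together held 5.31%. The exact rank-sum test called 6.72% as higher in the numbered and 2.35% in the unnumbered splits, 9.07% in all, and limma without splits 5 to 8 called 3.14 and 1.12%. Of the 7 NF-kB genes that passed the filter on low values, 2 were higher in the numbered splits, NFKBIE and NFKBIZ, and none in the unnumbered ones, and the rank-sum test called the same 2. NFKBIE, NFKBIZ and NFKB2, 3 of the 7, averaged below 1 FPKM in the unnumbered set and passed the filter only through the numbered one, so the direction of their differences, the 3 largest, was fixed by the filter. The 4 that passed in both sets, NFKB1, REL, RELA and NFKBIA, had differences of 0.78 to 1.64, and none was called. The median over all tested genes was 0.35, 0.21 with size factors and -0.02 with the length trend removed. The differences of these 4 stayed positive under each setting run, with REL not tested at a minimum mean of 10 FPKM. Only NFKBIZ still passed with size factors (adjusted p = 0.0329) or TPM (0.0338), and neither gene passed with the length trend removed (0.0539 and 0.0816 for NFKBIZ and NFKBIE).

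The sets also differed in detection. The 10 genes were seen 50 times in 100 gene and split pairs of the numbered set and 18 times in 100 of the unnumbered set. Over all tested genes, which leave out RELB, NFKBIB and BCL3, the shares were 47.5 and 39.4%, so the 2 kinds of share are not fully alike. Each numbered split held 3 to 10 of the 10 genes with a median of 4, and each unnumbered split 1 or 2 with a median of 2, so the ranges did not meet at this limit. They overlapped at the other limits tried, with 3 to 10 against 2 to 5 genes at 0.1 FPKM, 0 to 7 against 1 to 2 at 10 FPKM, and 3 to 10 against 0 to 4 by a lower confidence bound above 0. All 10 were seen in split 2, 8 in split 7 and 6 in split 5. Of the genes, 9 were seen in more numbered than unnumbered splits, RELB and BCL3 among them, which were not tested. The same held for all 7 tested NF-kB genes, beside 53.4% of all tested genes. Of these 7, NFKBIE, NFKBIZ and NFKB2 passed the filter only through the numbered set, which favours this direction. NFKBIE and NFKBIZ were seen in at least 6 numbered and no unnumbered splits, as were 0.695% of tested genes, and the reverse held for 0.0571% and for none of the 10. Splits 5 to 8 held a median of 5.0 and the other 6 numbered splits one of 3.5.

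The number of all genes seen also moved between the sets. Split 7, with the most genes (7671), held 8 of the 10, and split 253, with the fewest (2942), held 1. Other splits departed from that order. Split 8 held 6611 genes in all but 4 of the 10, and split 2 with 5557 genes held all of them. Unnumbered split 233, with 4792 genes, held 1, while numbered split 9, with 3771, held 3. The part of overall detection in the difference was not tested.

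**Figure D4:**
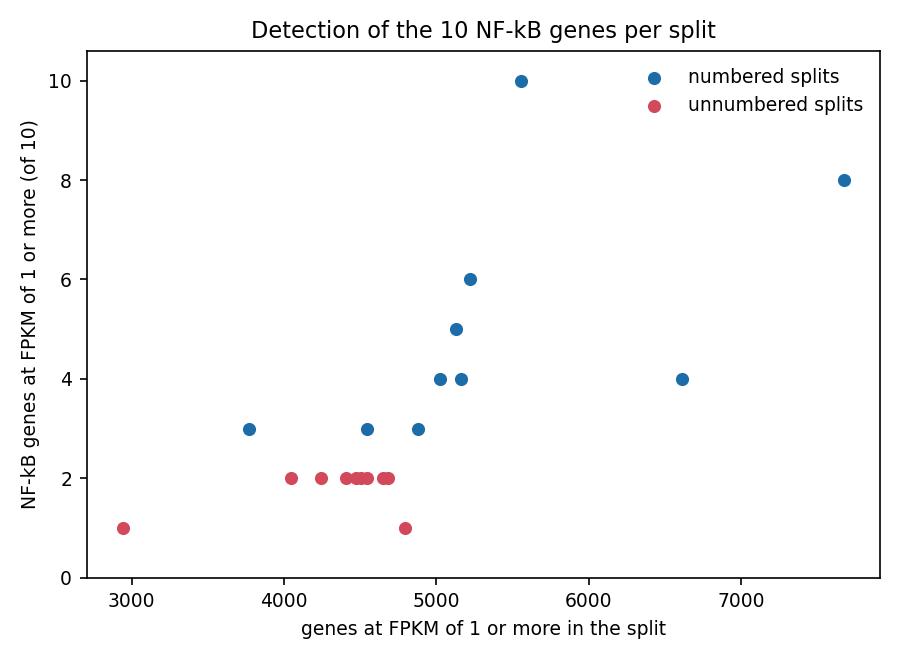
Number of the 10 NF-kB genes seen in a split (vertical) against all genes seen in it (horizontal), both at an FPKM of 1 or more, with 1 point per split. The unnumbered splits (red) all lie at 1 or 2 genes, and the numbered ones (blue) at 3 to 10.

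The upstream and regulatory genes of the pathway were read from a list of 47 genes, of which 38 passed the filter. None passed an adjusted p of 0.05 by limma in either direction. At an unadjusted p below 0.05 there were 6, 4 higher in the numbered and 2 in the unnumbered splits (16.3% of all tested genes lay below that value), and the exact rank-sum test called 2, TNFAIP3 and TNFRSF17. The median difference was 0.79, and 27 of the 38 were positive, beside 59.9% of all tested genes. TNFRSF1A, TRAF2, TRAF5, MAP3K14, BTRC and TNIP2 passed the filter only through the numbered set, which favours a positive difference. For TNFRSF1B, with a negative difference, the reverse held.

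Among 9 receptors, CD40, a main entry to the noncanonical pathway in B cells, was seen in 10 numbered and 6 unnumbered splits. Its medians were 142 and 10.1 FPKM, with ranges of 8.25 to 291 and 0 to 322 FPKM that overlap (difference 3.07, SE 1.19, adjusted p = 0.164). TNFRSF17, the BCMA gene, a receptor of the plasma cell lineage, went the other way, with medians of 7.65 and 154 FPKM (difference -3.77, SE 1.14, adjusted p = 0.0526). TNFRSF17 passed as higher in the unnumbered splits under several alternatives, among them without splits 5 to 8 (adjusted p = 0.0363). The BAFF receptor gene TNFRSF13C averaged below the filter.

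Among 13 adaptors, the ubiquitin ligase gene BIRC3, which with TRAF3 keeps NIK low, was the most abundant. BIRC3 was seen in 10 numbered and 7 unnumbered splits, at medians of 92.3 and 66.3 FPKM (adjusted p = 0.411). For TRAF1, a signalling adaptor and known NF-kB target, the medians were 20.2 and 7.81 FPKM (adjusted p = 0.595). BCL10, of the complex that links antigen receptors to the kinases, had medians of 1.29 and 45.5 FPKM (difference -2.29, adjusted p = 0.288). BCL10 passed once splits 9, 247 and 253 were left out (limma adjusted p = 0.0444).

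Among 10 kinases, MAP3K8 and TBK1 were the most abundant. MAP3K8, which acts beside the NFKB1 precursor, had medians of 56.9 and 0.0778 FPKM, with overlapping ranges that reached 122 and 115 FPKM (adjusted p = 0.367). In TBK1, an IKK-related kinase gene, the medians were 11.03 and 7.499 FPKM (adjusted p = 0.634). The NIK gene MAP3K14 was seen in 2 numbered splits and no unnumbered one.

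Among 15 ubiquitin enzymes and negative regulators, TNFAIP3, the A20 gene, an NF-kB target whose product shuts the pathway down, was seen in 7 numbered and 2 unnumbered splits, at medians of 11.96 and 0 FPKM (difference 2.57, SE 0.89, limma adjusted p = 0.103, rank-sum adjusted p = 0.0254). Its partner gene TNIP1 was seen in 10 and 5 splits, at medians of 56.8 and 11.4 FPKM (2.69, SE 1.001, adjusted p = 0.14). TNIP1 passed once splits 9, 247 and 253 were left out (adjusted p = 0.012). COMMD1, which promotes the turnover of RELA protein, was the most abundant, at medians of 164 and 307 FPKM (adjusted p = 0.366), and those of TANK were 109 and 1.08 FPKM (adjusted p = 0.366). BTRC, which encodes the ligase subunit that recognises marked IkB, was seen in 5 numbered splits and no unnumbered one (adjusted p = 0.246). Of all tested genes, 1.25% were seen in at least 5 numbered and no unnumbered splits. BTRC passed the filter only through the numbered set, which favours this pattern.

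**Figure D5:**
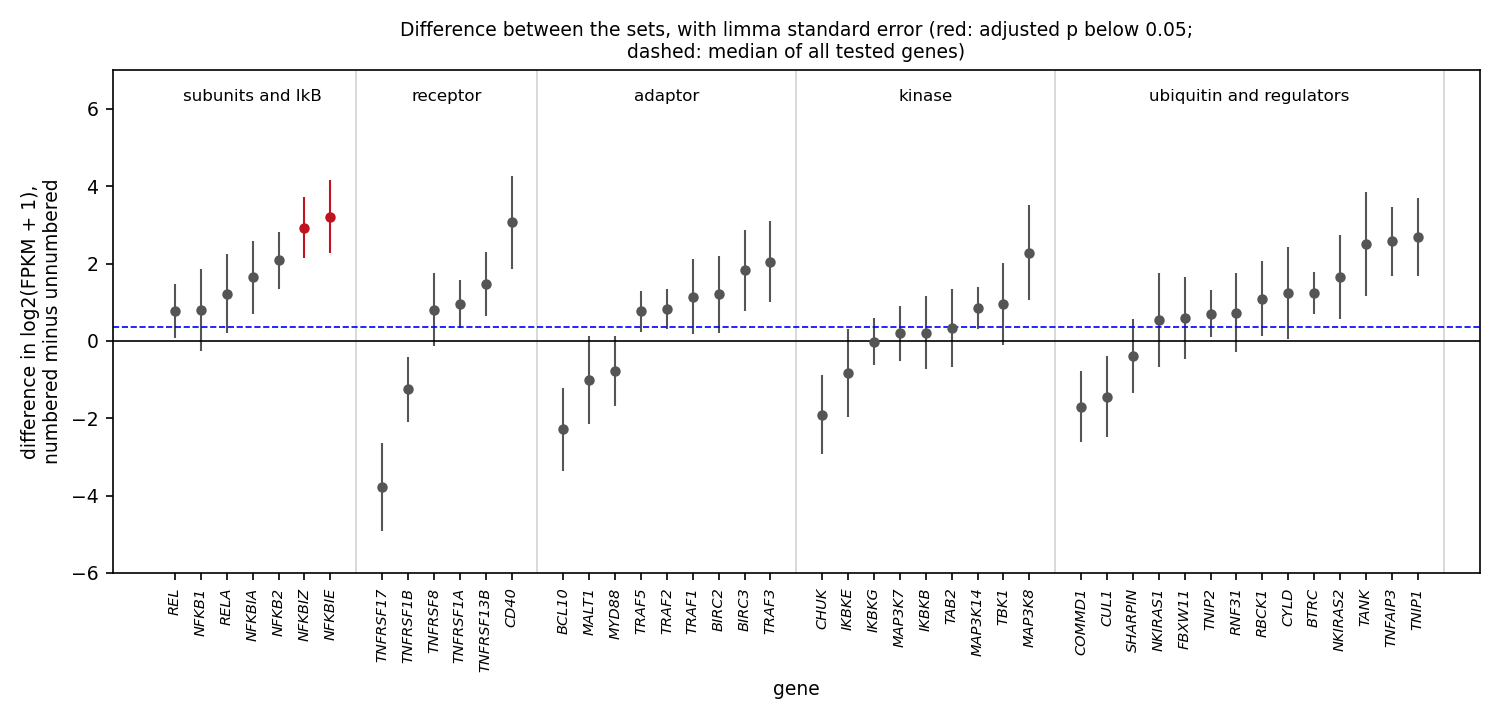
Difference in log2(FPKM + 1), numbered minus unnumbered, with its limma standard error, for the 7 tested NF-kB genes (left) and 38 other pathway genes by role. NFKBIE and NFKBIZ (red) are the genes past an adjusted p of 0.05, and the dashed line is the median of all tested genes, 0.35.

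Genes whose values followed those of NFKB1 and NFKBIA most closely were sought among 3322 others with a mean of 30 FPKM or more, over 20 splits after each set's mean of log2(FPKM + 1) was subtracted. For NFKB1 these were STK4 (Pearson's r = 0.832), CREB5 (0.779) and GNL3 (0.732), and for NFKBIA they were HSPA4 (0.815), ACTR2 (0.770) and CHCHD5 (0.768). Spearman's rho was 0.707, 0.728 and 0.725 for the first group but 0.603, 0.429 and 0.155 for the second. The points share a library for both genes, the best of all compared were picked, and no test was made.

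The coordinates of these genes in the deposited files, counted from 1, are chromosome 4, 103422486 to 103538459 for NFKB1, chromosome 2, 61108656 to 61150645 for REL, chromosome 11, 65421067 to 65430565 for RELA, chromosome 10, 104154229 to 104162281 for NFKB2 and chromosome 19, 45504695 to 45541452 for RELB. The inhibitors lie on chromosome 14, 35870717 to 35873955 (NFKBIA), chromosome 19, 39390340 to 39399533 (NFKBIB), chromosome 6, 44225919 to 44233500 (NFKBIE), chromosome 3, 101546835 to 101579866 (NFKBIZ) and chromosome 19, 45250962 to 45263301 (BCL3). No source used here names the build of these files (labels of the other 42 samples name hg19), and these positions are not to be mixed with those of the printed promoters.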

How the data were processed

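The authors deposited 1 table per library with FPKM, confidence bounds and a status for 55040 genes, for which the submitters' processing notes list TopHat 1.4.1 and Cufflinks 2.0.2. For these 20 files no source used here states the build or annotation, whereas the labels of the other 42 samples name hg19 and GENCODE V13. Rows marked LOWDATA in every library (5797) or FAIL in any (128) were left out. Depth was taken from the bounds of mitochondrial protein genes, whose width was read as Poisson counting error. Cufflinks assigns fragments to transcripts by estimation, and no read counts were used.

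The 20 splits were grouped by title. Sets were compared with limma 3.58.1 (R 4.3.3, trended variance) on log2(FPKM + 1), which understates the change of low genes, over the 10506 rows with a mean FPKM of 1 or more, with Benjamini-Hochberg adjustment over all of them at 0.05. The exact rank-sum test, counts and figures used Python 3.11.15, numpy 2.4.6, scipy 1.17.1 and pandas 2.3.3. Gene lengths came from GENCODE 29 and were found for 96.8% of tested rows. The limma fit was tested on simulated data and the rank-sum p-values against full enumeration. Alternatives changed the pseudocount, filter, scaling, length correction, test, detection limit and splits included. No 2 libraries held identical values. Genes, lists, roles and alternatives were chosen with earlier results of these data known. Named were all 10 members, pathway genes past the threshold, the 2 most abundant per role and the 3 most similar genes; BCL10, TNFAIP3, TNIP1, BTRC, MAP3K14 and TNFRSF13C were added after their values were seen. The other 42 samples were not analysed here.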

Additional observations from a re-analysis of the deposited data

Results flagged for a closer look

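Within a set of 10 splits, 9 results had 1 split far from the rest, of 37 sets of values examined; chance flags about 1 in 20 where values are normally distributed, a rate that does not apply to sets listed mostly at 0, such as BCL3 and NFKB2. The figure given with each is the gap to the nearest other split as a share of the whole range, on the log2(FPKM + 1) scale. NFKBIA in numbered split 9 was at 0.318 FPKM when the other 9 held 38.4 to 190.2 FPKM (0.683). In the same split RELB stood at 8.43 FPKM against 2.17 at most elsewhere in the set (0.486). Numbered split 2 was the high one for NFKBIB, at 2.37 FPKM (0.592), and for BCL3, at 1.49 FPKM with the others listed at 0 (1.0). In the unnumbered set REL reached 15.7 FPKM in split 246 against 1.25 at most in the others (0.712). NFKB2 in split 233 (0.212 FPKM, 0.766) and RELB in split 252 (0.435 FPKM, 0.723) were flagged at levels below 1 FPKM. Of the pathway genes, TNFRSF17 was low in unnumbered split 252, at 0.846 FPKM (0.592), and BIRC3 in numbered split 1, at 10.3 FPKM (0.529).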

How the results depend on the processing

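The differences in log2(FPKM + 1) of the 7 tested NF-kB genes stayed positive under all settings run in which they could be tested. For NFKBIE, NFKBIZ and NFKB2 the filter had favoured that direction, and by mean FPKM NFKB1 was higher in the unnumbered set. The calls did not hold under all settings. Of the 2 called genes, 0 passed with a pseudocount of 10, without a filter on low values, without splits 9, 247 and 253, without splits 5 to 8, with splits 5 to 8 as a covariate and with the length trend removed, and 1 with TPM, with size factors and, chosen after seeing the data, by the rank-sum test without splits 5 to 8. Leaving out 1 split at a time gave 1 to 2. Adjusted p over all settings ran from 5.42e-04 to 0.187 for NFKBIZ and from 0.0129 to 0.212 for NFKBIE. Pathway genes called numbered 0 in the main analysis, 1 with a pseudocount of 0.1 or 10, a minimum mean of 10 FPKM, TPM, size factors, splits 5 to 8 left out or as a covariate, or the length trend removed, 2 without splits 9, 247 and 253 and by the rank-sum test, and 0 to 2 with 1 split left out. With a pseudocount of 0.1 the pathway gene called was TNFAIP3 (main difference 2.57). In the other listed settings with 1 call it was TNFRSF17 (main difference -3.77), which was higher in the unnumbered splits. Over all genes, 413 and 145 calls became 235 and 234 with the length trend removed. They became 706 and 247 by the rank-sum test, and 341 and 223 with TPM. The difference in median noncanonical share, 8.93 percentage points, ran from 5.39 to 12.5 with 1 split left out, and scaling cannot change it. The difference of 2 in the median number of NF-kB genes seen per split was 2 to 3 at other detection limits, 2 without splits 9, 247 and 253 and 1.5 without splits 5 to 8, all chosen after seeing the data. The cause was not tested. Each member has a single row, so summing rows of a symbol changed none of its values. No paired analysis was possible because the unnumbered splits carry library numbers that match no number of the other set. Depth limits low genes most in split 247.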
